A study of Mus musculus with 10 samples.

Results

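The genes described here are 10 genes of the hepatic triglyceride pathway and of the lipid droplet: the lipins *Lpin1* and *Lpin2*, the acyltransferases *Gpam*, *Agpat2*, *Dgat1* and *Dgat2*, the droplet coat genes *Plin2* and *Plin5*, the lipase *Pnpla2* and its inhibitor *G0s2*. They were taken by name from the 12148 genes of the count table, and they were selected on the TMM CPM of these same 10 livers, with the difference between the groups known. Their differences between groups are therefore given as a description and without p-values. Whole liver RNA came from wild-type germ-free (GF) C57BL6 mice, 1 library per mouse, in a single experiment. The 5 GF+MEV mice received 80 µg of microbiota-derived extracellular vesicles (MEV) in PBS by mouth, 2 doses per week for 3 weeks, and the 5 GF+PBS mice received PBS alone. MEV are membrane vesicles shed by gut bacteria, here purified from cecal content and stool of control mice, and all 10 animals lacked a microbiota of their own. The age and sex of the germ-free mice are not given in the sources used here.

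Liver builds triglyceride by adding acyl chains to glycerol-3-phosphate: GPAT and AGPAT enzymes make phosphatidate, lipins remove its phosphate to leave diacylglycerol, and DGAT enzymes add the last chain. The product is stored in droplets coated by perilipins, or loaded onto lipoproteins, and is hydrolysed again by adipose triglyceride lipase, the product of *Pnpla2*, which the small protein G0S2 inhibits. In liver the lipins are known to stand at a branch between storage and phospholipid synthesis, and lipin 1 also enters the nucleus, where it acts with PGC-1α on genes of fatty acid oxidation.

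The 3 members whose livers separated completely by treatment were *Lpin1*, *Lpin2* and *Plin5*, and the bases before a RefSeq start of each are shown for that reason. All are on GRCm38.p6, written 5′ to 3′ on the gene's own strand from RefSeq sequence. Those of *Lpin1* are chr12:16610967-16611216 on the minus strand and reach the first base of the gene in GENCODE, those of *Lpin2* are chr17:71183282-71183531 on the plus strand and lie between exons of the longer GENCODE gene, whose edge is 972 bases before this RefSeq start, and those of *Plin5* are chr17:56117597-56117798 on the minus strand, without the 48 bases that GENCODE counts as its first exon. Capitals mark matches, on either strand, to 5 short motifs: AGAACA, a glucocorticoid receptor half-site, AGGTCA, a nuclear receptor half-site, TGACG, the core of the cyclic AMP response element, CACGTG, an E-box, and TGTTTAC, a FOXO core.
Lpin1: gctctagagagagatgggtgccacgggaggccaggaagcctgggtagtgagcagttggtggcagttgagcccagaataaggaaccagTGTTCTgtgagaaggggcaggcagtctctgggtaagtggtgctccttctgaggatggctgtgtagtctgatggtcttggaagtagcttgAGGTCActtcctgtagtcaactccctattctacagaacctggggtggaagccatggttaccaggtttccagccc
Lpin2: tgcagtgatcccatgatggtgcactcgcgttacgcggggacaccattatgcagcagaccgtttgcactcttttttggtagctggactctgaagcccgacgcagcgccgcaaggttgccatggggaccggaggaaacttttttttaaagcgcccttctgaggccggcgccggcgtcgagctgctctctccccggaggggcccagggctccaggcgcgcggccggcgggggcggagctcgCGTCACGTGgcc
Plin5: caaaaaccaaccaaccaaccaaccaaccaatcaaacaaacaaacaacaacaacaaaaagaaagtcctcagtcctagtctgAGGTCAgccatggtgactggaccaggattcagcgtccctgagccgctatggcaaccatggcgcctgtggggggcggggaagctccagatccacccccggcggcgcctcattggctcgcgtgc

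Windows of 250 bases before a RefSeq start were held for 8 of the 10 members, 12 windows in all, and the entries for *Dgat1* and *Dgat2* were missing. In *Lpin1* an AGAACA match on the opposite strand began 163 bases before the start and an AGGTCA match began 74 bases before it. *Lpin2* held TGACG on the opposite strand and CACGTG in 1 overlapping stretch, 12 and 9 bases before the start, and *Plin5* held AGGTCA 170 bases before it. The motifs were common letters: AGGTCA stood in 4 of the 12 member windows (*Gpam*, *Lpin1*, *Plin2* and *Plin5*) and in 14% of all 32851 windows of this length, AGAACA in 2 (*Lpin1* and *Lpin2*) and in 16.1%, and TGACG in 3 (*G0s2*, *Gpam* and *Lpin2*) and in 17.8%. CACGTG and TGTTTAC each stood in 1 member window, both of *Lpin2*, and in 6.02% and 3.17% of all windows. *Lpin2* and *Plin5* had more than 1 window, and 1 of each is shown. The TGTTTAC and AGAACA matches of *Lpin2* lay in a window that is not shown. A match describes letters only, and whether any match bears on the level of its gene was not tested.

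Levels are given as CPM, the read count of a gene scaled to the TMM-adjusted size of its library. A difference is a log2 fold change, GF+MEV minus GF+PBS, from the edgeR fit. The standard error (SE) printed beside it is that of the difference between the group means of log2 CPM, computed apart from the fit. A gene is called where edgeR's quasi-likelihood test, fitted over 12147 genes, gave an adjusted p under 0.05. Of the 10 members, 4 were called higher in GF+MEV (*Lpin1*, *Lpin2*, *Plin5* and *Pnpla2*), 0 were called lower and 6 were not called. Over all genes tested 928 were called, which is 7.64%, with 4.12% higher and 3.52% lower. In 3 members the 2 groups of livers did not overlap, against 7.39% of all genes. The median log2 fold change was 0.18 over the members and -0.0037 over all genes tested. As the members were chosen with this comparison known, nothing is read from these counts.

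**Figure D1:**
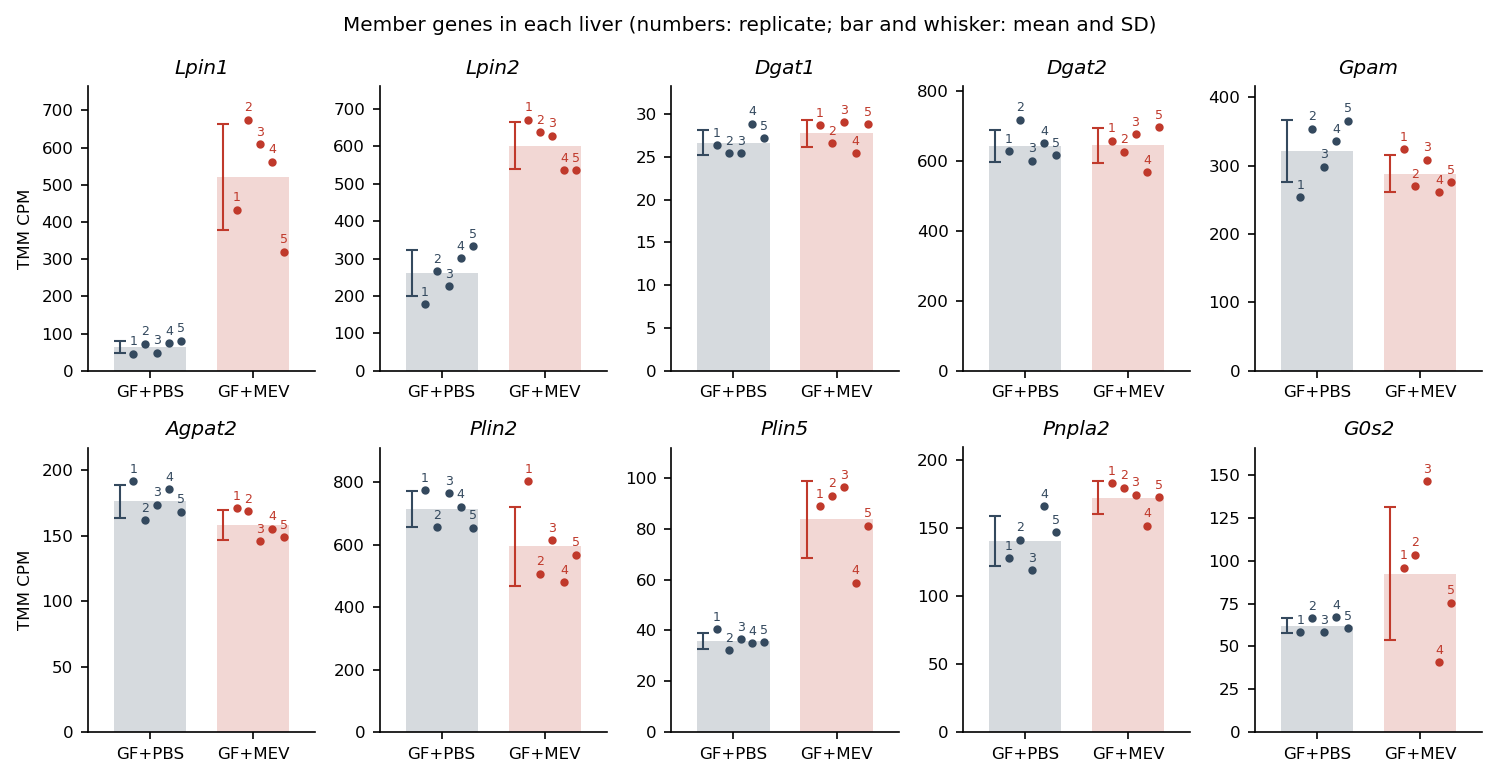
CPM of each of the 10 genes (vertical axis, linear from 0) in the 5 GF+PBS and 5 GF+MEV livers, with each point numbered by its replicate, bars at the mean and whiskers at 1 SD. All 5 GF+MEV points lie above all 5 GF+PBS points for *Lpin1*, *Lpin2* and *Plin5*, and the groups overlap in the other 7 panels.

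*Lpin1* showed the largest log2 fold change among the members. *Lpin1*, whose product is the phosphatidate phosphatase lipin 1, stood at 433.5, 675.1, 609.6, 562.5 and 320.4 CPM in GF+MEV replicates 1 to 5 and at 46.03, 72.85, 48.98, 74.64 and 81.55 CPM in GF+PBS replicates 1 to 5. The lowest GF+MEV liver, replicate 5, was thus well above the highest GF+PBS liver, which was also replicate 5. The means were 520.2 ± 142.5 and 64.81 ± 16.16 CPM (SD, n = 5 each), an 8.03-fold difference, and the log2 fold change was 3.0 (SE 0.26). *Lpin1* lies on chr12:16535669-16610966, minus strand, and its counts ran from 823 to 12626 reads per library, so counting error was small beside the spread between mice.

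*Lpin2*, the second phosphatidate phosphatase of liver, stood at 671.4, 637.2, 628.8, 536.4 and 536.0 CPM in GF+MEV replicates 1 to 5 and at 178.1, 266.6, 226.0, 301.9 and 333.1 CPM in GF+PBS replicates 1 to 5. Again no liver of one group reached the other. The means were 602.0 ± 62.12 and 261.1 ± 61.25 CPM (SD, n = 5 each), 2.31-fold, with a log2 fold change of 1.20 (SE 0.17). *Lpin2* lies on chr17:71182560-71249817, plus strand. The order of the livers within GF+MEV was not the same for both lipins, with replicate 1 the highest of 5 for *Lpin2* and the second lowest for *Lpin1*, whereas within GF+PBS the order was the same, from replicate 1 through 3, 2 and 4 to 5. *Lpin3*, the remaining lipin and named after its values were seen, was low in both groups at 8.98 ± 1.11 and 8.29 ± 1.15 CPM (SD, n = 5 each) and was not called (edgeR, adjusted p = 0.64).

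Because levels of different genes can be compared only per length, the lipins were also added up as CPM per kb of annotated exon. The sum was 101.8, 124.8, 116.8, 104.7 and 79.3 in GF+MEV replicates 1 to 5 and 21.54, 31.33, 26.13, 34.92 and 37.55 in GF+PBS replicates 1 to 5. The *Lpin1* share of that sum was 50.29 ± 6.81% in GF+MEV and 22.03 ± 1.68% in GF+PBS (SD, n = 5 each), and the *Lpin2* share was 47.37% and 70.2%. In GF+PBS livers *Lpin2* was therefore the main lipin transcript in every animal, while in GF+MEV livers the share of *Lpin1* ran from 41.8% in replicate 5 to 55.99% in replicate 2. With the longest annotated transcript as the length, the *Lpin1* share was 45.36% and 19.2%, again without overlap.

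**Figure D2:**
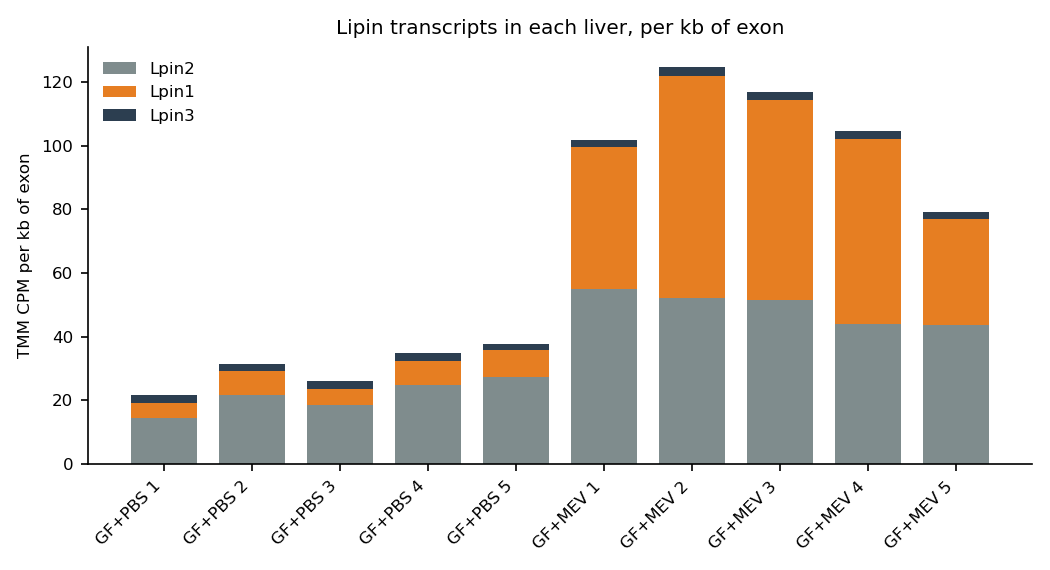
Stacked bars of *Lpin2*, *Lpin1* and *Lpin3* in each of the 10 livers, in CPM per kb of exon (vertical axis from 0). The whole bar is 21.54 to 37.55 in GF+PBS and 79.3 to 124.8 in GF+MEV, and the *Lpin1* share averages 22.03% and 50.29%.

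The member enzymes before and after the lipins did not show such a difference, although *Gpat4*, no member, was called higher and is given below. *Gpam*, which encodes the mitochondrial acyltransferase of the first step, had its 5 GF+MEV livers at 260.8 to 323.7 CPM (median 276.0) and its 5 GF+PBS livers at 254.0 to 365.6 CPM (median 335.8), with a log2 fold change of -0.16 (SE 0.11). *Agpat2*, which acylates lysophosphatidate, ran from 146.1 to 171.2 CPM and from 161.8 to 191.7 CPM, with a log2 fold change of -0.16 (SE 0.06). Neither was called and both overlapped between groups, although *Agpat2* was called lower when libraries were scaled by their totals alone (-0.23). *Agpat2* shares 64 bases of exon with *Egfl7* on the other strand, and reads of the 2 genes there cannot be told apart, since the library kit named in the labels is not described as keeping strand.

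*Dgat1* and *Dgat2*, which encode unrelated enzymes for the last acylation, were the members closest to 0. *Dgat2* stood at 659.1, 626.9, 676.6, 568.0 and 697.2 CPM in GF+MEV replicates 1 to 5 and at 628.1, 718.7, 601.2, 652.4 and 616.4 CPM in GF+PBS replicates 1 to 5, with a log2 fold change of 0.0049 (SE 0.07). *Dgat1* averaged 27.73 ± 1.61 and 26.65 ± 1.45 CPM (SD, n = 5 each), with a log2 fold change of 0.06 (SE 0.05). Both signs turned with library totals alone, and that of *Dgat2* also in other settings, so no direction is given for either. Within each liver, *Dgat2* per kb was 23.06 ± 0.70 times *Dgat1* in GF+MEV and 24.0 ± 2.34 times in GF+PBS (SD, n = 5 each), with overlap.

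The droplet coat genes differed from each other. *Plin5*, a perilipin of oxidative tissues that tethers droplets to mitochondria, stood at 88.81, 92.93, 96.32, 58.72 and 81.08 CPM in GF+MEV replicates 1 to 5 and at 40.42, 32.22, 36.48, 34.92 and 35.43 CPM in GF+PBS replicates 1 to 5. The groups did not overlap, and GF+MEV replicate 4 lay nearest to the GF+PBS livers. The means were 83.57 ± 15.01 and 35.89 ± 2.98 CPM (SD, n = 5 each), 2.33-fold, and the log2 fold change was 1.22 (SE 0.14). *Plin5* lies on chr17:56111601-56117596, minus strand.

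*Plin2*, the general coat protein of hepatocyte droplets, stood at 803.8, 508.3, 614.0, 480.7 and 568.2 CPM in GF+MEV replicates 1 to 5 and at 775.6, 655.8, 765.9, 722.2 and 655.1 CPM in GF+PBS replicates 1 to 5. In 4 of the 5 GF+MEV livers *Plin2* was below every GF+PBS liver, while GF+MEV replicate 1 had the highest value of all 10. Its log2 fold change was -0.26 (SE 0.14) and it was not called, whereas without GF+MEV replicate 1 the value was -0.40 and *Plin2* was called lower. The ratio of *Plin5* to *Plin2*, both per kb of exon, was 0.2407 ± 0.04812 in GF+MEV and 0.08458 ± 0.004598 in GF+PBS (SD, n = 5 each), and the groups did not overlap. *Plin2* remained the more abundant of both per kb in all 10 livers.

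*Pnpla2*, the lipase of the first step of droplet hydrolysis, stood at 182.5, 179.5, 174.2, 151.5 and 172.5 CPM in GF+MEV replicates 1 to 5 and at 127.8, 141.2, 119.0, 166.1 and 146.9 CPM in GF+PBS replicates 1 to 5. GF+MEV replicate 4 lay below GF+PBS replicate 4, so the groups overlapped by this pair of livers. The means were 172.0 ± 12.17 and 140.2 ± 18.15 CPM (SD, n = 5 each), 1.23-fold, with a log2 fold change of 0.29 (SE 0.10). The call was near its threshold and was lost in 14 of 21 alternative settings, with log2 fold changes from 0.22 to 0.36 over all of them. Among the 10 fits that each left out 1 liver, *Pnpla2* was still called only without GF+MEV replicate 4 and without GF+PBS replicate 4.

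*G0s2*, the inhibitor of that lipase, stood at 95.95, 103.4, 146.2, 40.81 and 75.56 CPM in GF+MEV replicates 1 to 5 and at 58.36, 66.29, 58.26, 67.11 and 60.59 CPM in GF+PBS replicates 1 to 5. In 4 GF+MEV livers it was above every GF+PBS liver, and in GF+MEV replicate 4 it was below all of them. The log2 fold change was 0.57 (SE 0.31) and *G0s2* was not called. Without GF+MEV replicate 4 the value was 0.76 and it was called higher, and without GF+MEV replicate 3, its highest liver, the value was 0.34 and it was not called. The ratio of *G0s2* to *Pnpla2* per kb was 0.9343 to 2.911 over GF+MEV livers and 1.401 to 1.697 over GF+PBS livers, with overlap.

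**Figure D3:**
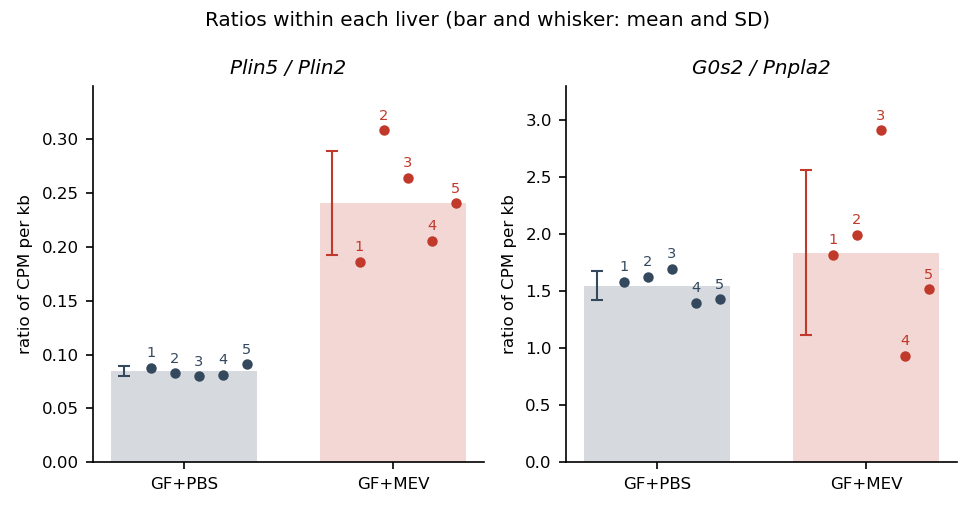
Ratio of *Plin5* to *Plin2* (left) and of *G0s2* to *Pnpla2* (right) in each liver, both from CPM per kb of exon, with numbered points for replicates, bars at the mean and whiskers at 1 SD. The *Plin5* to *Plin2* ratio does not overlap between groups, whereas the *G0s2* to *Pnpla2* ratio of GF+MEV livers lies on both sides of the GF+PBS range.

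Members differed in how much they varied between mice of 1 group. The coefficient of variation in GF+PBS ran from 5.43% for *Dgat1* to 24.9% for *Lpin1*, and in GF+MEV from 5.81% for *Dgat1* to 41.8% for *G0s2*. For *Lpin2* it was 10.3% in GF+MEV and 23.5% in GF+PBS, and for *G0s2* it was 41.8% and 6.91%. GF+MEV replicate 4 was the lowest liver of its group for 7 members (*Dgat1*, *Dgat2*, *Gpam*, *Plin2*, *Plin5*, *Pnpla2* and *G0s2*). The same library held the highest summed level of the 7 Kupffer cell markers, 389.0 CPM. The other GF+MEV livers had 192.1 to 256.3 CPM and the GF+PBS livers 232.3 to 340.8 CPM. Its sum of the 8 hepatocyte markers, 95720 CPM, was the lowest of the 10 livers. For these markers the other GF+MEV livers had 109200 to 115300 CPM and the GF+PBS livers 95890 to 112900 CPM. The part of either in the member values was not tested. Within GF+PBS, replicates 1 and 3 were below the other 3 livers for 5 members (*Lpin1*, *Lpin2*, *Gpam*, *Pnpla2* and *G0s2*), above them for 2 (*Plin2* and *Plin5*) and among them for 3 (*Dgat1*, *Dgat2* and *Agpat2*), a split looked at after the values were seen. *Per3*, a circadian clock gene named here for the same reason, was at 19.55 and 23.09 CPM in replicates 1 and 3 and at 57.71 to 68.09 CPM in the other 3, against 26.5 to 43.4 CPM in GF+MEV. The time of day of liver collection is not given in the sources used here, and its part in the member values was not tested.

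Per kb of exon, the order of the members in GF+PBS livers was *Dgat2* (mean 208.7 CPM per kb), *Plin2* (203.6), *Agpat2* (82.74), *G0s2* (71.32), *Gpam* (48.24), *Pnpla2* (46.42), *Lpin2* (21.35), *Plin5* (17.2), *Dgat1* (8.719) and *Lpin1* (6.706). The ranges over livers overlapped between *Dgat2* and *Plin2*, *Agpat2* and *G0s2*, *Gpam* and *Pnpla2*, *Lpin2* and *Plin5*, and *Dgat1* and *Lpin1*, so those neighbours are not ordered beyond their spread. In GF+MEV livers *Lpin1*, the lowest member of GF+PBS livers, was the sixth at 53.82 CPM per kb, above *Lpin2* at 49.21, *Gpam* at 43.18 and *Plin5* at 40.05 and below *Pnpla2* at 56.96, and *Dgat1* was the lowest at 9.073. The range of *Lpin1* over GF+MEV livers, 33.15 to 69.85, overlapped those of *Lpin2*, *Gpam* and *Plin5* and also those of *Pnpla2*, *Agpat2* and *G0s2*, so its place there is not beyond the spread. With the length of the longest transcript in place of all exons, 6 of the 10 members kept their place in GF+PBS, *Plin2* coming before *Dgat2* and *Pnpla2* before *Gpam*. In GF+MEV 5 kept it, and *Lpin2* (106.7) then came before *Lpin1* (93.21), the reverse of the order above.

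Other genes of the pathway were taken from 10 lists by step, and 64 genes that are no members were tested. Of these, 4 were called higher, 1 was called lower and 59 were not called, with a median log2 fold change of -0.016. The share called among these 64 was 7.81%, near the 7.64% of all genes tested, so the genes called are given one by one and nothing is read from their number. The list around the lipins held 6 genes that are no members: *Lpin3*, 3 lipid phosphate phosphatases, and the lipin regulators *Ctdnep1*, a protein phosphatase, and *Cnep1r1*, its subunit. None of the 6 was called, and of them *Plpp3*, a lipid phosphate phosphatase of the cell surface, had the most reads by CPM and had a log2 fold change of 0.03 (SE 0.08; edgeR, adjusted p = 0.86).

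Of the 11 other droplet coat and assembly genes, 2 were called higher. *Plin4*, a perilipin known from adipocytes and muscle, stood at 9.15, 16.35, 12.46, 7.30 and 9.45 CPM in GF+MEV replicates 1 to 5 and at 2.61, 4.04, 3.99, 4.75 and 6.07 CPM in GF+PBS replicates 1 to 5, without overlap. Its log2 fold change was 1.35 (SE 0.28; edgeR, adjusted p = 0.0018). *Hilpda*, which encodes a small droplet protein that inhibits adipose triglyceride lipase as G0S2 does, stood between 2.75 and 4.04 CPM in GF+MEV and between 1.37 and 1.92 CPM in GF+PBS, with a log2 fold change of 1.01 (SE 0.15; edgeR, adjusted p = 0.0025). Both rest on low counts, from 47 reads per library for *Plin4* and from 23 for *Hilpda*, and *Plin4* shares 17 bases of exon with *Hdgfl2* on the other strand, where reads cannot be told apart. *Plin4* lies next to *Plin5* on the same strand of chromosome 17, at 56100591 to 56109803.

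Markers of other cells that express *Plin4* varied between livers, and their part in the *Plin4* values was not tested. The 5 tested of 7 skeletal muscle markers summed to 248.3 to 341.8 CPM in GF+MEV and 209.0 to 765.1 CPM in GF+PBS. In GF+PBS, replicates 3, 4 and 5 were the high ones, and replicates 1 and 2 were at 209.0 and 254.6 CPM. Of 7 adipocyte markers only *Fabp4* and *Lipe* were among the genes analysed here, and they summed to 27.0 to 36.5 CPM in GF+MEV and 28.92 to 59.78 CPM in GF+PBS. The other 5 (*Adipoq*, *Plin1*, *Cfd*, *Lep* and *Retn*) were not among the genes tested, so no level can be given for them. The 8 hepatocyte markers summed to 95720 to 115300 CPM in GF+MEV and 95890 to 112900 CPM in GF+PBS, in keeping with the labelled tissue. *Alb* made up most of each sum, at 64590 to 80960 CPM in GF+MEV and 70780 to 83250 CPM in GF+PBS. Of the 8 markers, 3 were called higher in GF+MEV and 0 lower, against 7.64% of all genes called in either direction. The 3 tested of 6 lymphocyte markers summed to 2.48 to 3.66 CPM in GF+MEV and 5.04 to 6.42 CPM in GF+PBS, without overlap, and 2 were called lower. The 3 tested of 5 cholangiocyte markers summed to 28.14 to 79.27 and 23.2 to 29.66 CPM, and 1 was called higher. Among them *Krt19* did not overlap, at 0.96 to 16.83 CPM in GF+MEV and 0.30 to 0.78 CPM in GF+PBS. The part of these markers in the values of *Plin4*, *Hilpda* and the members was not tested. In whole liver, fewer cells of a type and less RNA per cell cannot be told apart.

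Of the 3 other glycerol-3-phosphate acyltransferases, *Gpat4*, an enzyme of the endoplasmic reticulum, was called higher, with 272.8, 212.4, 236.3, 264.8 and 231.6 CPM in GF+MEV replicates 1 to 5 and 162.1, 186.4, 165.6, 206.0 and 184.8 CPM in GF+PBS replicates 1 to 5. The groups did not overlap, and the log2 fold change was 0.43 (SE 0.09; edgeR, adjusted p = 0.0045). Of the 9 genes of fatty acid uptake and activation, 1 was called in each direction. *Slc27a2*, a fatty acid transporter and acyl-CoA synthetase, was at 2306 ± 40.33 CPM in GF+MEV and 2013 ± 108.2 CPM in GF+PBS (SD, n = 5 each), with a log2 fold change of 0.20 (SE 0.04; edgeR, adjusted p = 0.042), and its call was lost in 15 of 21 alternatives, adjusted p from 0.0012 to 0.24, with log2 fold changes of 0.12 to 0.23 over all 21. It shares 419 bases of exon with *Gm26697* on the other strand. *Cd36*, a fatty acid uptake receptor, was the gene called lower, at 97.66 ± 17.21 and 129.0 ± 9.55 CPM (SD, n = 5 each), with a log2 fold change of -0.40 (SE 0.13; edgeR, adjusted p = 0.027), and its call was lost in 8 of 21, adjusted p from 0.0039 to 0.21. Its log2 fold change was still -0.38 to -0.40 in those 8. *Gpat4* and *Plin4* kept their call in all 21 alternatives, and *Hilpda* in all but the one that kept GF+PBS replicates 1 and 2 alone.

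The 7 lists other than these 3 had no called gene outside the members. These held 4 genes of glycerol phosphate supply, 4 acylglycerol phosphate acyltransferases, the 6 genes around the lipins, 2 acyltransferases of the last steps, 8 genes of lipolysis, 6 of lipoprotein loading and 11 of the phospholipid branch. The most abundant gene of each by CPM lay close to 0 for *Aqp9*, a glycerol channel (-0.05, SE 0.06), *Agpat3* (0.05, SE 0.04), *P4hb*, the partner of the microsomal transfer protein (-0.01, SE 0.04), and *Pcyt2*, of phosphatidylethanolamine synthesis (-0.01, SE 0.07). *Soat2*, which makes cholesteryl ester, had -0.25 (SE 0.10; edgeR, adjusted p = 0.10), and *Ces1d*, a carboxylesterase with triglyceride hydrolase activity, had -0.26 (SE 0.08; edgeR, adjusted p = 0.055), both not called. *Pnpla3*, a lipid droplet acylhydrolase related to *Pnpla2* and named here after its values were seen, was at 0.475 ± 0.179 CPM in GF+MEV and 1.41 ± 0.82 CPM in GF+PBS (SD, n = 5 each), with overlap and without a call (-1.56, SE 0.51; edgeR, adjusted p = 0.051). These values rest on only 5 to 43 reads per library, and *Pnpla3* shares 105 bases of exon with *Gm49513* on the same strand.

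**Figure D4:**
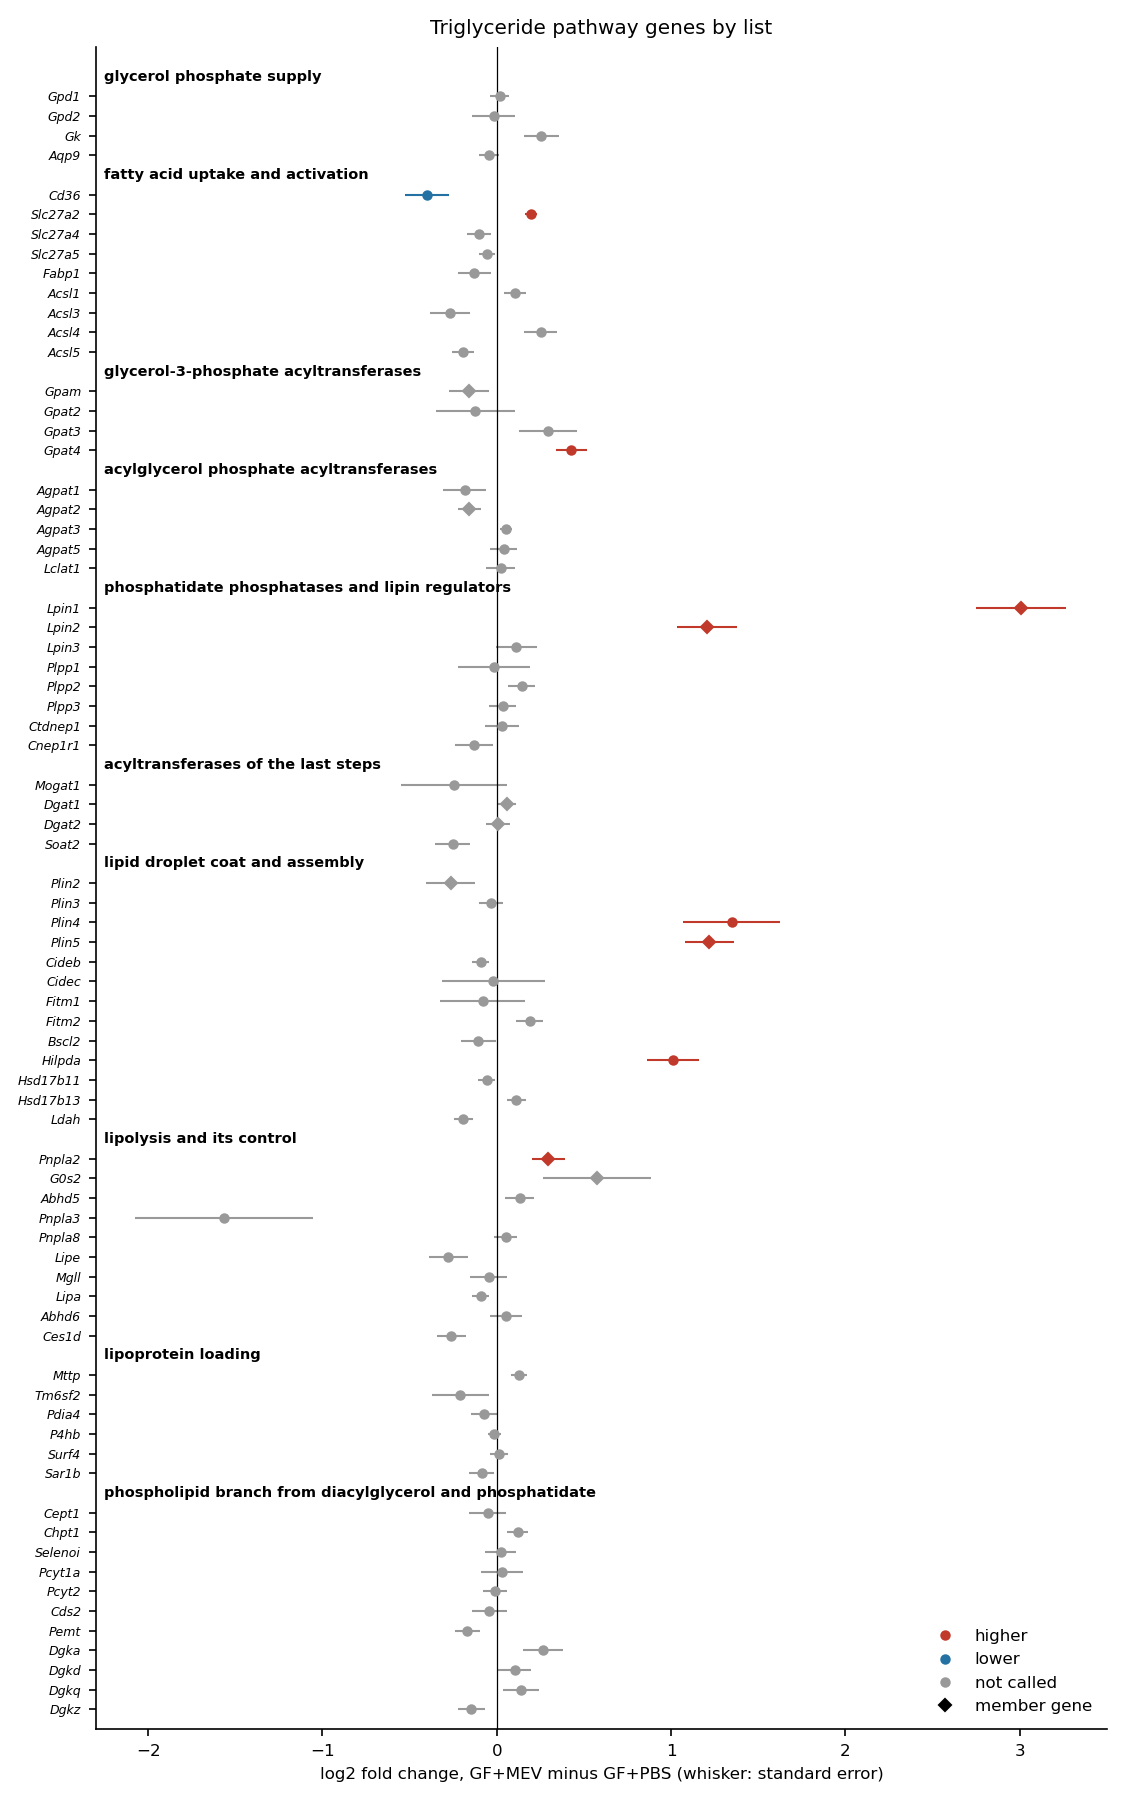
Log2 fold change, GF+MEV minus GF+PBS (horizontal axis), for the 10 genes (diamonds) and the 64 other pathway genes (circles) in 10 lists, coloured by call. Whiskers are the SE of the difference between group means of log2 CPM. *Lpin1* at 3.0 stands farthest right, *Lpin2*, *Plin5*, *Plin4* and *Hilpda* lie between 1.01 and 1.35, and most others lie near 0.

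The genes whose profile over the 10 livers was nearest to that of each called member were found by the root mean square (RMS) difference of log2 CPM, each gene centred on its own mean, among the 11834 genes that averaged 1 CPM or more. For *Lpin1* they were *Jun* (RMS difference 0.38), *AA986860* (0.44) and *Btg2* (0.45). For *Lpin2* they were *Apbb3* (0.14), *Tedc2* (0.14) and *Herpud1* (0.15), and for *Plin5* they were *Rusc2* (0.18), *Klf3* (0.19) and *Arrdc2* (0.19). *Pnpla2* had *Gne* (0.058) and *Hspa8* (0.073) among its nearest. No member was among the 3 nearest of another member. The nearest genes of *Lpin1* had log2 fold changes of 2.56 to 2.78, all under its own 3.0. With each gene centred over all 10 livers, the distance takes in the difference between the groups as well as the spread within them. Likeness within a group alone was not tested.

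**Figure D5:**
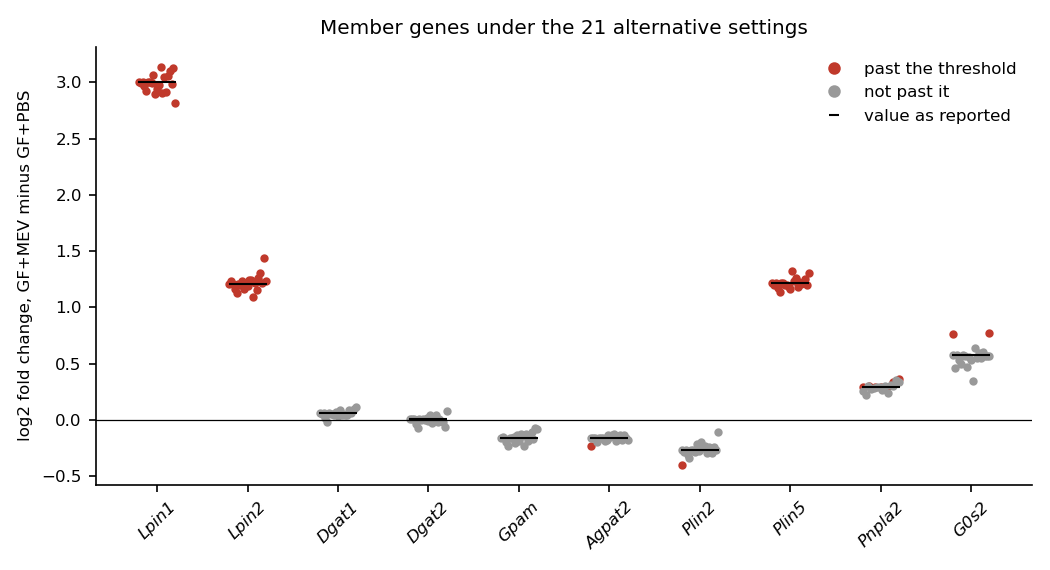
Log2 fold change of each of the 10 genes under 21 alternative settings (points, red where the gene passed the threshold of that fit) and as reported (black line). *Lpin1*, *Lpin2* and *Plin5* are red throughout, at 2.82 to 3.14, 1.09 to 1.44 and 1.14 to 1.32, and *Pnpla2* is red in 7 of 21.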

How the data were processed

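Liver RNA of 5 GF+MEV and 5 GF+PBS mice was sequenced from NEBNext Ultra libraries. Per the labels, bcl2fastq 2.17, STAR 2.7.3a and GRCm38 were used. The authors counted reads per gene with HTSeq, whose version and strand setting are not given in the sources used here, dropped genes whose counts over the samples came to under 20, and deposited the raw counts, not normalized, by Ensembl identifier. Another 5 columns match no described sample and were not used. Symbols, positions and exon lengths came from GENCODE vM21 of GRCm38, and 5 identifiers had no symbol. Libraries held 15746119 to 20523649 counts in GF+MEV and 16140770 to 19733387 in GF+PBS, with TMM factors of 0.89 to 1.04.

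Genes whose counts in the 10 livers summed to 20 or more (12147 of 12148) were fitted on treatment alone with edgeR 4.0.16 in R 4.3.3 (TMM, quasi-likelihood test, Benjamini-Hochberg, threshold 0.05), where the study used DESeq2. For the SE, log2 CPM values were computed with prior count 2. The fits were tested on simulated data. The members and lists were chosen with earlier results of these data known. Named genes were the members, called pathway genes, the most abundant gene of each list with no call, and the 3 nearest profiles of each called member, of which 1 is not reported here. Alternatives were DESeq2 1.42.0, limma-voom (limma 3.58.1), other scalings and filters, a replicate block, each liver left out, and summed GF+PBS pairs. Fits on GF+PBS replicates 1 and 2 alone, since replicates 3, 4 and 5 held more muscle RNA, and on GF+MEV replicates 1, 3 and 5 alone were added after the data were seen.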

Additional observations from a re-analysis of the deposited data

Results flagged for a closer look

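Of 34 groups of 5 values examined for a sample far from the others, 1 passed Dixon's critical value of 0.71, where chance gives about 1.7. It was the TMM normalization factor of GF+MEV replicate 2, at 0.8902 against 0.9775 to 1.009 in the other GF+MEV livers, with a gap over range of 0.734. None of the 20 groups of member values passed. Without this liver, *Lpin1*, *Lpin2* and *Plin5* were still called higher.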

How the results depend on the processing

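*Lpin1*, *Lpin2* and *Plin5* were called higher in all 21 alternatives, at log2 fold changes of 2.82 to 3.14, 1.09 to 1.44 and 1.14 to 1.32. Members called ran from 3 to 5. The 928 genes called overall were 561 with GF+PBS pairs summed, 321 with GF+PBS replicates 1 and 2 alone, both with fewer samples, and 696 to 926 with 1 liver left out. Of the calls 53.9% were higher, against 41.2% with upper-quartile scaling and 32.5% with library totals alone, where the median of all genes moved by at most -0.0745. The 5 other pathway genes called were 9 with library totals alone, 3 with the pairs summed, 2 with GF+PBS replicates 1 and 2 alone, and 3 to 6 with 1 liver left out, the 3 arising without GF+PBS replicate 3 and without replicate 5. *Dgat1* turned to -0.0158 with library totals alone. *Dgat2* turned to -0.0366 with upper-quartile scaling, -0.0703 with library totals alone, -0.0140 with the pairs summed and -0.0588 with GF+PBS replicates 1 and 2 alone, and ran from -0.0231 to 0.0477 with 1 liver left out. With the longest transcript as length, 6 of 10 members kept their place in GF+PBS and 5 in GF+MEV, where *Lpin2* went before *Lpin1*. *G0s2* was 0.34 without GF+MEV replicate 3 and 0.76, called, without replicate 4. *Cd36* lost its call without GF+MEV replicates 1 or 2 or GF+PBS replicates 2, 3 or 5, each in turn. Of 315 single-gene alternatives, 262 kept direction and call. The setting without a filter on low counts held 12148 genes against 12147, so it could hardly differ and adds little to that number. Beyond these settings the causes were not tested. Profiles showed no common pairing by the replicate numbers of the labels. The correlations of deviations of same-numbered livers over 11834 genes were 0.189, -0.0909, -0.0475, -0.20 and 0.056. Of 5 GF+MEV livers, 1 correlated best with its own number. These correlations cannot show whether the mice were paired in housing or handling. With the replicate number as a block, 792 genes, 3 members and 4 other pathway genes were called, *Pnpla2* (0.30) and *Slc27a2* (0.20) no longer passing.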
